A study of Bos taurus with 15 samples.

Results

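The genes described here encode the subunits of the mitochondrial respiratory chain and of ATP synthase, the enzymes of oxidative phosphorylation. They were taken from a deposited RNA-seq table by gene name. The names were those of the 13 protein genes of the mitochondrial genome and nuclear symbols of these forms: NDUFA, NDUFB, NDUFC, NDUFS or NDUFV followed by a number alone, SDHA to SDHD, any symbol that starts with UQCR or ATP5, CYC1, and COX with a number from 4 to 8 followed at most by a letter A to C and 1 digit. Assembly factors such as NDUFAF4, and COX4I1, fall outside these forms. This gave 91 genes of 19994 in the table, 13 of them mitochondrial and 78 nuclear. Complex I had 7 mitochondrial and 36 nuclear members, complex II had 4 nuclear members, and complex III had 1 mitochondrial and 9 nuclear members. Complex IV had 3 mitochondrial and 10 nuclear members, with NDUFA4 counted there, and complex V had 2 mitochondrial and 19 nuclear members.

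The respiratory chain passes electrons from NADH and succinate to oxygen and pumps protons across the inner mitochondrial membrane, and ATP synthase uses the proton gradient to make ATP. Complexes I, III, IV and V are built from subunits of both genomes, while complex II is wholly nuclear. The mitochondrial subunits are read from long polycistronic transcripts inside the organelle, by a polymerase and RNA processing enzymes that are themselves nuclear products. The transcripts are then cut, most of the products are polyadenylated, and they are later degraded. In the uterus, luminal epithelium faces the embryo before implantation, and in cattle it responds to interferon tau from the trophoblast.

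The study grew bovine endometrial epithelial cells, scraped from uteri of beef cows, as monolayers with or without embryos for 48 h. In the contact group morulae lay on the monolayer, in the no contact group they were held in a transwell above it, and the control group was the same monolayer without embryos. The morulae were made in vitro, were 5.5 days old and were added in groups of 15 ± 1, and wells of all groups received an insert and the same serum-supplemented oviduct medium. Each group had 5 libraries of polyadenylated RNA from the monolayers. The cells came from 4 pooled uteri, were frozen and were used at subculture 3, so each p-value rests on differences among cultures of 1 stock, not among cows.

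Values are normalized counts, that is read counts divided by 1 size factor per library. Libraries are named by the number in their title, 2 control libraries with their full titles BEEC.103 and BEEC.104. Contact libraries 97 and 108 held 4195091 and 6104652 assigned reads, and the other 13 held 12938091 to 19792557. There are gaps between the title numbers, which leave runs of 24 to 30, of 83 to 90 and of BEEC.103 to 110, with 97 by itself, and the labels do not say what these runs are. Of the epithelial markers KRT8 read 30046 to 39121 normalized counts in contact, 30049.7 to 40317 in no contact and 29337 to 39003 in control. CDH1 read 1377 to 1698 in contact, 952 to 1536 in no contact and 1133 to 1349 in controls, while EPCAM did not pass 3.36 and CLDN4 did not pass 4.47 in any library. Of the stromal genes COL1A1 read 82924 to 101584 in contact, 82259 to 110526 in no contact and 89962 to 116621 in controls, while THY1 did not pass 8.95. The cells therefore carried keratins together with high collagen transcripts in all 3 groups, and are called by their label only.

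Most of the 13 mitochondrial genes were lower where embryos touched the cells, while nearly all nuclear genes of the same complexes did not pass the test. Against control, limma called 12 of the 13 mitochondrial genes lower in contact and 0 higher, with a median log2 fold change of -0.66. Over all 12559 genes tested, 5.78% (726) were called lower and 7.17% (901) higher in that comparison, with a median of -0.01, and with CPM scaling 544 were called lower and 1109 higher. Against no contact, 10 of the 13 were called lower in contact and 0 higher, with a median of -0.58, beside 1.82% (229) of all genes called lower and 3.73% (469) higher and a median of 0.01, or 156 lower and 591 higher with CPM. In bulk RNA, fewer cells of a type and less RNA per cell cannot be told apart. Here the sequenced RNA was polyadenylated RNA, and how far a change in the poly(A) tails of mitochondrial transcripts would alter these counts was not tested.

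For no contact against control limma called 0 of the 13 mitochondrial genes in either direction, and 0 had an unadjusted p under 0.05. In that comparison 1.48% of all genes were called higher and 0.111% lower. The median of the 13 was -0.02, with a range of -0.24 for ND3 to 0.05 for ND6. DESeq2 and edgeR on recovered reads also called 0, beside 213 and 187 of all genes higher and 33 and 16 lower. The no contact and contact groups were each set against the same control libraries, so the comparisons are not independent.

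CYTB, the mitochondrial subunit of complex III that carries the b-type haems and the quinone-binding sites, had the lowest fold change of the 13 in both contact comparisons. In contact libraries 28, 87, 97, 107 and 108 it read 44050, 43960.5, 40612, 40970.2 and 45761 normalized counts. In no contact libraries 30, 89, 90, 109 and 110 it read 83044, 81779, 97049.8, 61071 and 66450.5, and in control libraries 24, 83, 84, BEEC.103 and BEEC.104 it read 95026, 90216, 88346, 65243 and 66273. The highest contact library lay below the lowest library of either other group, and the no contact and control libraries overlapped. The log2 fold change was -0.89 ± 0.12 SE in contact against control (limma adjusted p = 2.53e-05) and -0.84 ± 0.12 in contact against no contact (limma adjusted p = 0.000167). Between no contact and control it was -0.06 ± 0.12 (limma adjusted p = 0.935).

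Complex I, which takes electrons from NADH, has 7 mitochondrial subunits, all in its membrane arm. Limma called 6 of these 7 lower with contact than in control, and the same 6 lower than in no contact. ND4, one of the large proton-pumping subunits, read 60155, 66361, 57636, 54111 and 64999 normalized counts in the contact libraries, taken in the order given for CYTB. It read 100582, 106287, 121627, 82349 and 88817 in the no contact libraries and 114890.3, 143179, 126634, 88646 and 93319 in the control libraries. All contact libraries lay below all others. ND4 fell by 0.88 on the log2 scale in contact against control (limma adjusted p = 3.58e-05) and by 0.71 in contact against no contact (limma adjusted p = 0.00106).

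ND4L, a small membrane subunit whose reading frame overlaps the start of ND4 on the same transcript, read 5512, 6313, 5451, 5570.4 and 5672 normalized counts in contact. It read 9056, 9166, 11113, 7369 and 7522 in no contact and 10212, 10244, 11126, 8371 and 8547 in controls. Contact library 87 was the highest of its group, and it too lay below every library of the other groups. The log2 fold change was -0.76 ± 0.10 SE in contact against control (limma adjusted p = 1.67e-05) and -0.62 ± 0.10 in contact against no contact (limma adjusted p = 0.000529). Reads in the overlap of ND4L and ND4, and in that of ATP8 and ATP6, may be split or shared by the counting, with settings not given in the sources used here.

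Among the other complex I genes, ND3 and ND1 averaged 12892 ± 1377 and 47223 ± 4681 normalized counts in contact, against 20192 ± 4064 and 71489.9 ± 13839 in no contact and 24295 ± 6509 and 77673 ± 15407 in controls (SD, n = 5 per group). Their log2 fold changes in contact against control were -0.88 and -0.70 (limma adjusted p = 0.00145 and 0.00153). ND5, the largest pumping subunit, and ND6, the only one of the 13 read from the other strand, had log2 fold changes of -0.67 and -0.66 in contact against control (limma adjusted p = 0.000396 and 0.000324). In contact against no contact those of ND3, ND1, ND5 and ND6 were -0.63, -0.58, -0.67 and -0.71 (limma adjusted p = 0.0309, 0.014, 0.000812 and 0.000361). The ND3 call against no contact was lost without contact 28, 97 or 107 or no contact 30, 89 or 90 (limma adjusted p = 0.0602 to 0.0766). ND6 lies beside ND5 in the opposite orientation, and the sources used here do not say whether the counting used strand, so the strand of reads over ND6 is uncertain.

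ND2, a pumping subunit, was the exception. It read 46668, 55999.8, 45515, 41347 and 47155 normalized counts in contact, 59656, 73559.6, 80562, 51787 and 51376 in no contact, and 63929, 75091, 75221, 50040.3 and 51311 in controls. Contact library 87 lay above no contact 109 and 110 and above control BEEC.103 and BEEC.104. The log2 fold change was -0.40 ± 0.14 SE in contact against control (limma adjusted p = 0.0647) and -0.40 ± 0.14 in contact against no contact (limma adjusted p = 0.0994). It passed against control without contact 87, no contact 90, or control BEEC.103 or BEEC.104 (limma adjusted p = 0.0302 to 0.0477) and in a fit of only these 2 groups (limma adjusted p = 0.0249). It also passed with the run of title numbers as a block, against control and no contact (limma adjusted p = 0.00148 and 0.00277), and with DESeq2 (adjusted p = 0.0243 and 0.0373).

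Complex IV, cytochrome c oxidase, transfers electrons to oxygen, and its 3 mitochondrial subunits form the catalytic core. COX1, the subunit that holds the oxygen-binding site, read 498414, 519879, 455991, 454248 and 499962 normalized counts in contact. It read 614127, 631178, 768068, 534168 and 557814 in no contact and 654826, 642917, 647204, 546211 and 550310 in controls. Every contact library lay below every library of the other groups. COX1 nevertheless had the fold change nearest to 0 of the 13, at -0.32 ± 0.10 SE in contact against control (limma adjusted p = 0.0426) and -0.34 ± 0.10 in contact against no contact (limma adjusted p = 0.0528). The call against control was lost without contact 28, 87, 97, 107 or 108, no contact 30 or 89, or control 24, 83 or 84 (limma adjusted p = 0.0507 to 0.107), and a call against no contact appeared without no contact 109 (limma adjusted p = 0.0257).

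COX2, which receives electrons from cytochrome c, averaged 45293 ± 2877 normalized counts in contact, 61798 ± 13310.1 in no contact and 63555 ± 10411 in controls (SD, n = 5 per group). Its log2 fold change was -0.48 in contact against control (limma adjusted p = 0.0149), a call lost without control 24 (limma adjusted p = 0.0503). Against no contact it was -0.43 (limma adjusted p = 0.0522), and it passed without no contact 109 or 110 or control 24 or BEEC.104 (limma adjusted p = 0.0201 to 0.0471). COX3, a structural core subunit, averaged 94658 ± 8389 in contact, 140998 ± 23676 in no contact and 141400 ± 21747 in controls. It fell by 0.57 in contact against control and by 0.56 in contact against no contact on the log2 scale (limma adjusted p = 0.00236 and 0.00531).

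Complex V is ATP synthase, and its mitochondrial subunits belong to the membrane sector. ATP6, part of the proton channel, averaged 67090.0 ± 3645 normalized counts in contact, 98699.6 ± 15286 in no contact and 98678 ± 13081 in controls (SD, n = 5 per group). ATP8, a small stator subunit, averaged 9128 ± 524 in contact, 12843 ± 1886 in no contact and 13000.4 ± 1911 in controls. ATP6 and ATP8 fell by 0.55 and 0.50 on the log2 scale in contact against control (limma adjusted p = 0.00133 and 0.00242). In contact against no contact they fell by 0.54 and 0.48 (limma adjusted p = 0.00297 and 0.00681).

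**Figure D1:**
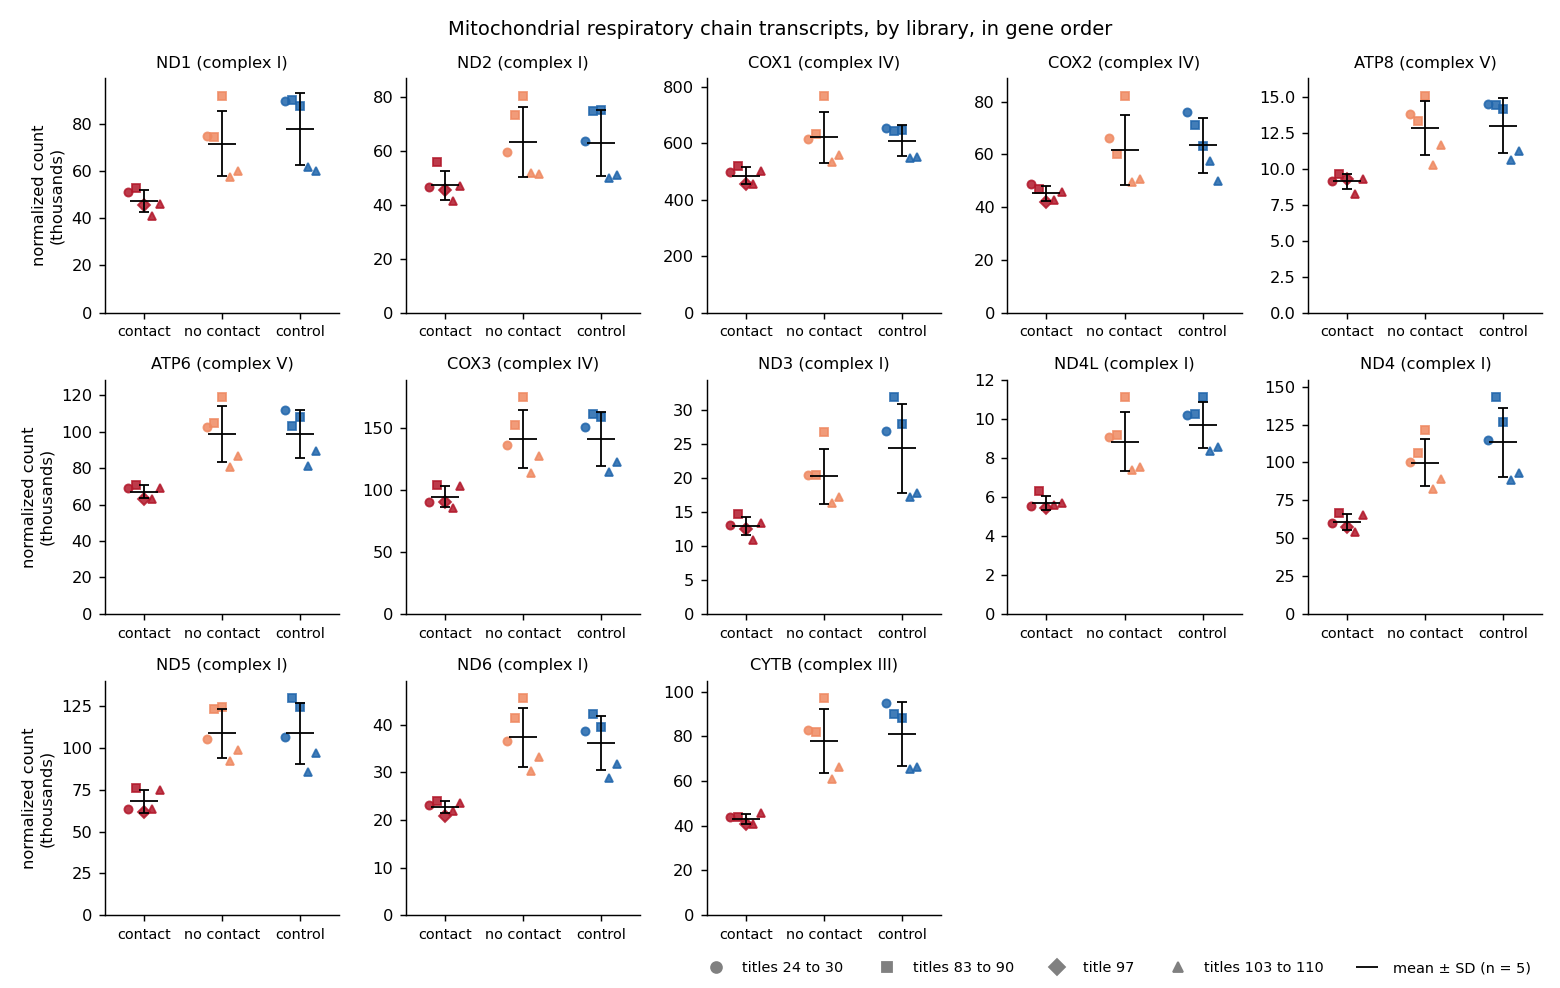
Normalized counts (in units of 1000, vertical axis) of the 13 mitochondrial genes in each library of the contact, no contact and control groups, with the mean ± SD of 5 libraries. Marker shapes give the run of title numbers. In all panels but ND2 the contact libraries lie below every library of the other groups, and in the no contact and control groups the libraries numbered BEEC.103 to 110 (triangles) are the lowest.

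Counted over the libraries, every contact library lay below every control library in 12 of the 13 mitochondrial genes, beside 6.16% of all genes tested. Every contact library lay below every no contact library in 12 of 13 as well, beside 2.00% of all genes. ND2 was the exception in both. No contact and control overlapped in 13 of 13.

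The run of title numbers moved with the mitochondrial values inside the no contact and control groups. In no contact, libraries 109 and 110 were the lowest for 13 of 13 genes, with a median difference of -0.38 on the log2 scale from the other 3 libraries. In control, libraries BEEC.103 and BEEC.104 were the lowest for 13 of 13, with a median difference of -0.41. The contact libraries did not follow this order. Their median log2 distances from the gene means were -0.51 in 107 and -0.32 in 108, beside -0.42 in 28, -0.28 in 87 and -0.47 in 97. Contact against control gave a median over the 13 genes of -0.74 within titles 24 to 30, -0.74 within 83 to 90 and -0.40 within BEEC.103 to 110. Contact against no contact gave -0.59, -0.66 and -0.41 in those runs. The first of these rests on 1 library a group and the second on contact 87 alone, and contact 97 has no partner in its run. No contact against control gave medians over the 13 genes of -0.14, -0.003 and -0.03 in the same runs. A chi-square of reads over genes, per degree of freedom, was 2.892 for control BEEC.103 with BEEC.104 and 3.235 for 83 with 84. Control pairs of different runs gave 9.306 to 17.33. Contact 107 with 108 gave 2.407 and no contact 109 with 110 gave 3.994, but no contact 89 with 90 gave 41.53. The main fit and the SDs treat the 5 libraries of a group as independent, which these values do not establish.

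With the run as a block, limma called 13 of 13 mitochondrial genes lower in contact than in control and 13 of 13 lower than in no contact, with medians of -0.59 and -0.52. Over all genes that fit called 7.67% lower and 8.51% higher against control, and 2.74% lower and 4.55% higher against no contact. For no contact against control the block left 0 of the 13 called, beside 1.94% of all genes higher and 0.414% lower. In that fit 3 of the 13 had an unadjusted limma p under 0.05, beside 1803 of 12559 genes. Without both shallow contact libraries, 97 and 108, limma called 10 of 13 lower than control and 8 of 13 lower than no contact. Over all 12559 genes that fit called 420 lower than control and 84 lower than no contact.

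The nuclear genes of the same complexes gave a different picture. The filter on low values kept 77 of the 78, and COX6A2, a heart and muscle form of a complex IV subunit, was listed at 0 in all 15 libraries. In contact against control limma called 0 of the 77 higher and 0 lower, beside 7.17% and 5.78% of all genes. There 12 had an unadjusted limma p under 0.05, beside 26.3% of all genes, and the median log2 fold change was 0.01. DESeq2 and edgeR also called 0, beside 989 and 925 of all genes higher and 824 and 691 lower. In no contact against control limma, DESeq2 and edgeR called 0, beside 1.48% of all genes called higher and 0.111% lower by limma. There 6 had an unadjusted limma p under 0.05, beside 8.39% of all genes, and the median was 0.07. In contact against no contact limma called 1 of 77 lower and 0 higher, beside 1.82% and 3.73% of all genes. There 12 had an unadjusted limma p under 0.05, beside 19.7% of all genes, and the median was -0.10. By sign alone, 67 nuclear genes were positive and 10 negative in no contact against control, beside 5837 and 6722 of all genes. In contact against no contact 19 were positive and 58 negative, beside 6522 and 6037, and in contact against control 41 and 36, beside 5979 and 6580. Both comparisons that use the no contact group include library 90, where 51 of the 77 nuclear genes had their highest value of all 15 libraries. Signs were not counted without that library, so the skew may rest on it.

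**Figure D2:**
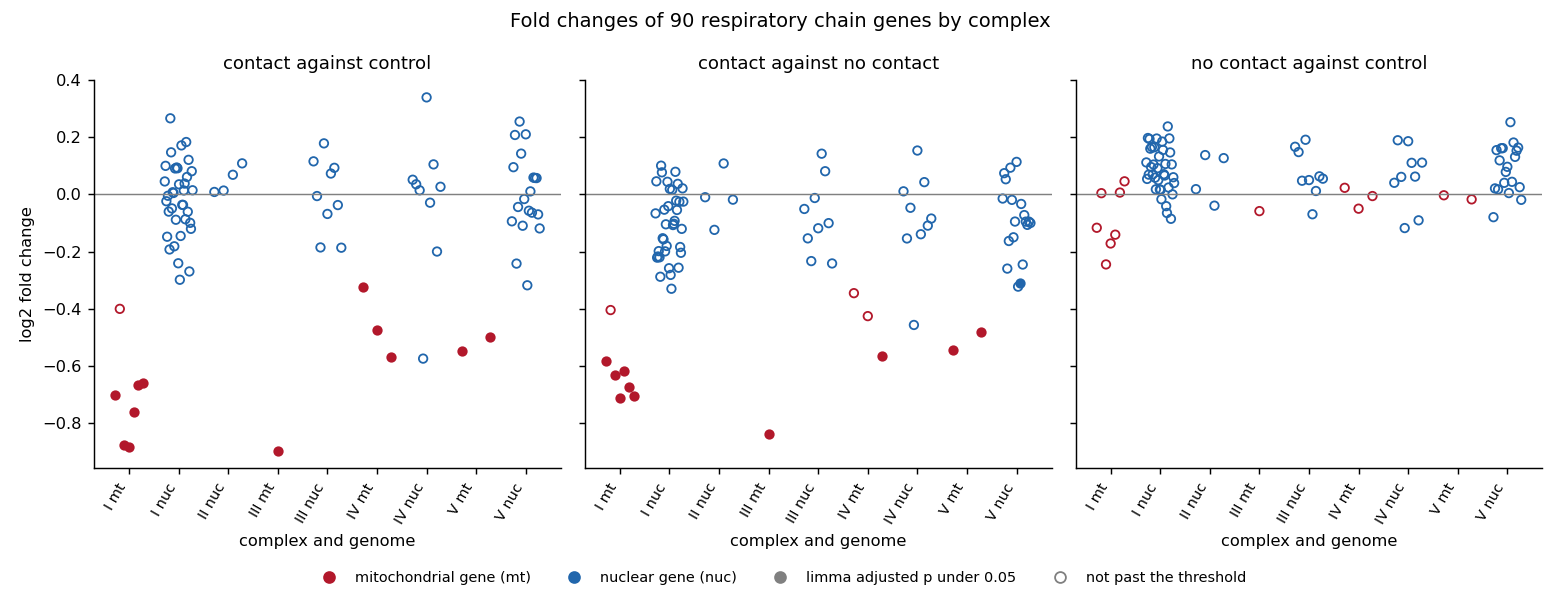
Log2 fold change (vertical axis) of the 90 genes tested, by complex and genome, in contact against control, contact against no contact and no contact against control. Filled circles passed a limma adjusted p of 0.05. The mitochondrial genes (red) of complexes I, III, IV and V lie between -0.89 and -0.32 in the first panel, while the nuclear genes (blue) lie between -0.57 and 0.34.

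By complex, the median log2 fold change of the nuclear genes in contact against control was 0.00 for the 36 of complex I and 0.04 for the 4 of complex II. It was -0.01 for the 9 of complex III, 0.03 for the 9 tested of complex IV and -0.02 for the 19 of complex V. The mitochondrial medians in the same comparison were -0.70 for complex I, -0.89 for complex III, -0.48 for complex IV and -0.52 for complex V. In contact against no contact the nuclear medians were -0.10, -0.01, -0.10, -0.08 and -0.10 for complexes I to V, beside -0.63, -0.84, -0.43 and -0.51 for the mitochondrial genes of complexes I, III, IV and V.

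In complex I, NDUFV2, which carries an iron-sulfur cluster, had log2 fold changes of 0.08 in contact against control and 0.02 in contact against no contact (limma adjusted p = 0.462 and 0.887). Complex II, succinate dehydrogenase, links the chain to the citric acid cycle. Its flavoprotein SDHA read 2123, 1915, 1936, 1841 and 1896 normalized counts in contact, 2083, 2094, 1949, 1779.6 and 1880.5 in no contact and 2116, 2019.7, 1943, 1812 and 1774 in controls. The 3 groups overlapped throughout. In contact against control the log2 fold changes of SDHA, the iron-sulfur subunit SDHB and the membrane anchors SDHC and SDHD lay between 0.01 and 0.11, with the smallest limma adjusted p = 0.463.

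In complex III, UQCRC1, a core subunit of the matrix side, averaged 1174 ± 81.5 normalized counts in contact, 1279 ± 150 in no contact and 1231 ± 91.4 in controls (SD, n = 5 per group). CYC1, cytochrome c1, averaged 1019 ± 70.6 in contact, 1057 ± 83.1 in no contact and 942 ± 77.8 in controls. In complex IV, the structural subunit COX6A1 averaged 2219.8 ± 206 in contact, 2300.4 ± 301 in no contact and 2196 ± 169.6 in controls, and NDUFA4 had log2 fold changes of 0.03 in contact against control and -0.08 in contact against no contact. In complex V, ATP5F1B, the catalytic beta subunit, averaged 5061 ± 242 in contact, 4814 ± 371 in no contact and 4744 ± 339 in controls. ATP5MC2, a copy of the ring subunit whose reads may be shared with ATP5MC1 and ATP5MC3, had log2 fold changes of -0.11 and -0.15 in contact against control and against no contact. None of these 6 genes passed in any of the 3 comparisons.

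The called nuclear gene was ATP5MF, a membrane-sector subunit of ATP synthase. It read 674, 676, 558, 544 and 599 normalized counts in contact, 738, 694, 961, 681 and 723 in no contact and 645, 658, 646, 639.6 and 576 in controls. All contact libraries lay below all no contact libraries, and no contact 90 stood above its group. The log2 fold change was -0.31 ± 0.09 SE in contact against no contact (limma adjusted p = 0.045), 0.25 ± 0.09 in no contact against control (limma adjusted p = 0.334) and -0.06 ± 0.09 in contact against control (limma adjusted p = 0.74). The call was lost with the run as a block (limma adjusted p = 0.0551). It was also lost without contact 97, 107 or 108, no contact 30, 89, 90 or 110, or control 24, 83, 84 or BEEC.103 (limma adjusted p = 0.0503 to 0.128).

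Some nuclear genes had groups that did not overlap although limma did not call them. In contact against control 2 of the 77 lay wholly above, ATP5F1C, the rotating gamma subunit, and ATP5IF1, the ATPase inhibitor, beside 7.45% of all genes, and 1 lay wholly below, the accessory subunit NDUFB4, beside 6.16%. ATP5IF1 averaged 1364 ± 126 normalized counts in contact and 1139.98 ± 42.6 in control (SD, n = 5 each; log2 fold change 0.25, limma adjusted p = 0.0714). NDUFB4 averaged 369.6 ± 26.5 in contact and 436 ± 16.1 in control (log2 fold change -0.24, limma adjusted p = 0.124). In no contact against control 2 lay wholly above, the complex I accessory subunit NDUFB8 and ATP5MF, beside 1.98% of all genes, and 0 below, beside 0.971%. In contact against no contact 0 lay above, beside 3.44% of all genes, and 2 below, ATP5MF and the complex I accessory subunit NDUFA2, beside 2.00%. These genes were picked after their values were seen, and shares near those of all genes are not a result about the respiratory chain.

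Blocking on the run, limma called 4 nuclear genes of the 77 up and 2 down with contact against control, beside 8.51% up and 7.67% down over all genes in that fit. The 4 were the complex I subunits NDUFS3 and NDUFB8, the complex IV subunit COX7A1 and ATP5IF1, with log2 fold changes of 0.24, 0.21, 0.44 and 0.29 (limma adjusted p = 0.0447, 0.018, 0.00608 and 0.0156). The 2 were NDUFS7, a core subunit of complex I, at -0.26 and the ATP synthase subunit ATP5F1D at -0.19 (limma adjusted p = 0.0317 and 0.0366). Against no contact it called ATP5F1D lower, at -0.21 (limma adjusted p = 0.0419), beside 2.74% down over all genes. Without no contact 90, which enters the shared estimate of the spread, limma called 3 nuclear genes up and 3 down with contact against control, beside 1102 up and 980 down over all genes. Of the 77 nuclear genes, 51 had their highest value of all 15 libraries in no contact 90, as did 9 of the 13 mitochondrial genes. That library also stood apart over the whole table, by a measure that includes these genes and was not made without them. A chi-square of its reads against each other no contact library, over genes and per degree of freedom, was 40.2 to 49.55. The other pairs of that group gave 3.994 to 20.09.

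**Figure D3:**
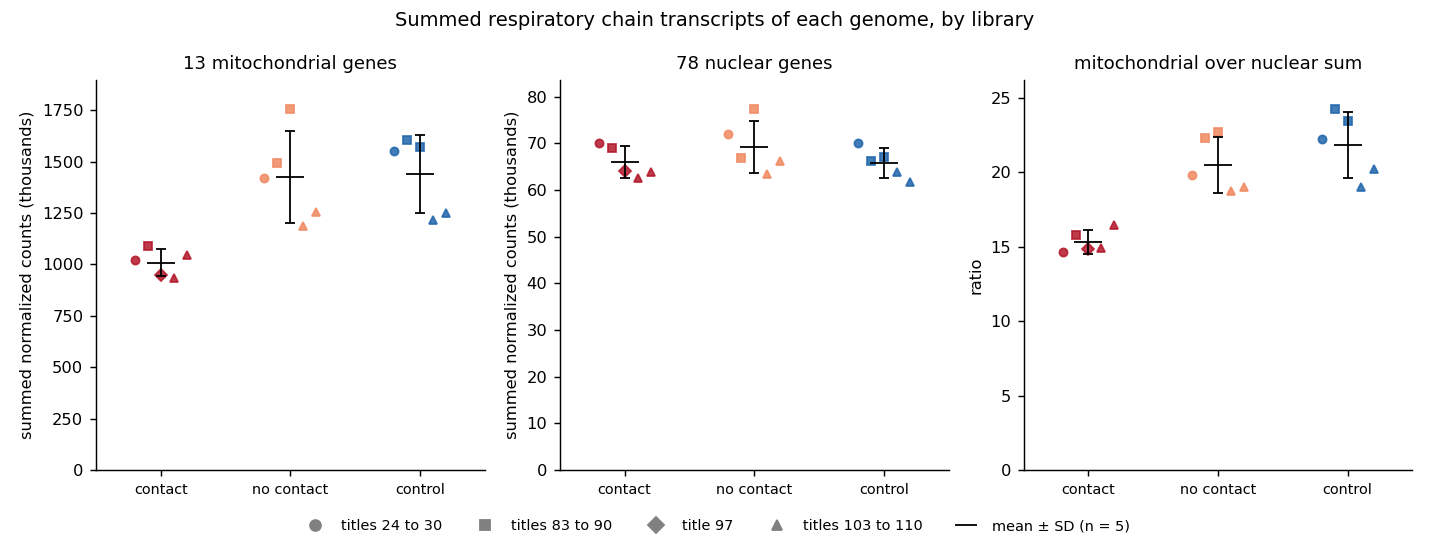
Summed normalized counts (in units of 1000) of the 13 mitochondrial genes and of the 78 nuclear genes, and the ratio of the sums, in each library, with the mean ± SD of 5 libraries per group and marker shapes for the run of title numbers. The ratio is 14.6 to 16.4 in contact, 18.7 to 22.7 in no contact and 19.0 to 24.3 in control, and the nuclear sums of the 3 groups overlap.

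The sums of each genome gave the balance in every library. The mitochondrial sum over the nuclear sum was 14.6, 15.8, 14.8, 14.9 and 16.4 in the contact libraries, 19.8, 22.3, 22.7, 18.7 and 19.0 in the no contact libraries and 22.2, 24.3, 23.4, 19.0 and 20.2 in the control libraries. All contact libraries lay below all others. The nuclear sum was 62669 to 70087 normalized counts in contact, 63381 to 77441 in no contact and 61751 to 69984 in control, so that the 3 groups overlapped. The mean ratio was 15.3 ± 0.774 in contact, 20.5 ± 1.87 in no contact and 21.8 ± 2.19 in controls (SD, n = 5 per group). Its mean in contact was 0.701 of that in control. With each gene scaled to its own mean, so that COX1 did not lead, the mitochondrial mean in contact was 0.639 of that in control and the nuclear mean 0.995.

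Per complex, the mitochondrial sum over the nuclear sum was 13.2 to 15.2 in contact, 18.3 to 23.0 in no contact and 18.7 to 27.5 in control for complex I. For complex III it was 6.19 to 7.33 in contact, 9.80 to 12.4 in no contact and 10.5 to 13.96 in control. For complex IV it was 86.0 to 104.9 in contact, 110.6 to 129.1 in no contact and 116 to 132 in control, and for complex V 2.56 to 2.79 in contact, 3.27 to 4.07 in no contact and 3.22 to 4.12 in control. Contact did not overlap either other group in any of the 4 complexes, while no contact and control overlapped in all 4. The mitochondrial sum is CYTB alone for complex III and mostly COX1 for complex IV. These ratios therefore repeat the values of single genes given above, and no share over all genes was made for them. The sizes of these ratios depend on gene length and number and are not compared between complexes.

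The balance among the 13 mitochondrial genes also differed between groups. COX1 took 48.7%, 47.7%, 48.0%, 48.7% and 47.7% of the summed normalized counts of the 13 genes in the contact libraries. It took 43.2%, 42.3%, 43.7%, 45.0% and 44.4% in no contact and 42.2%, 40.0%, 41.2%, 45.0% and 44.0% in controls. The contact libraries lay above all others, within a range of about 1 percentage point. Because this is a ratio within each library, it does not depend on the size factor.

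**Figure D4:**
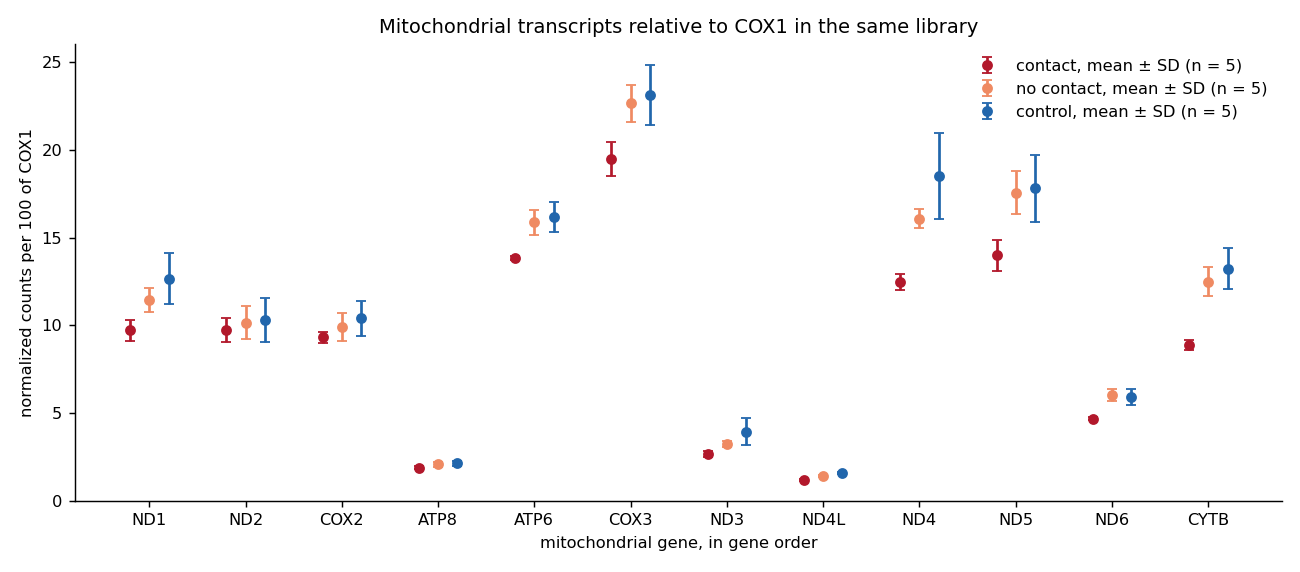
Normalized counts per 100 of COX1 in the same library (vertical axis) for the other 12 mitochondrial genes in gene order, as the mean ± SD of 5 libraries in contact, no contact and control. For CYTB the means are 8.87 in contact, 12.5 in no contact and 13.2 in controls, and for ND2 the groups lie together at 9.73, 10.2 and 10.3. Levels are not comparable between genes, whose lengths differ.

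Per 100 normalized counts of COX1, CYTB had 8.87 ± 0.263 in contact, 12.5 ± 0.830 in no contact and 13.2 ± 1.2 in controls (SD, n = 5 per group). ND4 had 12.5 ± 0.466 in contact, 16.1 ± 0.546 in no contact and 18.5 ± 2.44 in controls, and ND6 had 4.68 ± 0.0917 in contact, 6.01 ± 0.339 in no contact and 5.93 ± 0.472 in controls. Contact overlapped neither other group for these 3 genes or for ND1, ND3, ND4L, ND5, ATP6 and COX3. Lower mean ratios to COX1 in contact follow from its fold change, the nearest to 0 of the 13 mitochondrial genes. They are not a separate result, and no share over all genes was made for them. ND2, COX2 and ATP8 overlapped in both comparisons, and ND4L was the 1 gene for which no contact also lay wholly below control. ND2 had 9.73 ± 0.664 in contact, 10.2 ± 0.956 in no contact and 10.3 ± 1.24 in controls. In gene order from ND1 to CYTB, the genes with the least change, ND2, COX1 and COX2, followed one another, while those with log2 fold changes under -0.70 in contact against control were ND3, ND4L, ND4 and CYTB.

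The genes that act on mitochondrial RNA, and then other mitochondrial genes, were examined as lists. Counts in them stand beside 7.17% of all genes called up and 5.78% called down with contact against control, 1.48% and 0.111% without contact against control, and 3.73% and 1.82% between contact and no contact. Of 21 tested genes of mitochondrial RNA processing and stability, limma called 3 up and 1 down against control with contact, 1 up against control without contact, and 1 up and 2 down between contact and no contact. The medians were 0.09, 0.04 and 0.08. PNPT1, polynucleotide phosphorylase, an exoribonuclease of mitochondria that is also induced by interferon in human cells, read 3675, 3816, 3532, 2943 and 2943 normalized counts in contact. It read 1458, 1691, 2335, 2079 and 1875 in no contact and 629, 642, 646, 607 and 583 in controls. The 3 groups did not overlap. PNPT1 rose by 2.43 ± 0.10 SE in contact against control (limma adjusted p = 9.1e-14), by 1.58 ± 0.10 in no contact against control (limma adjusted p = 3.25e-10) and by 0.85 ± 0.10 in contact against no contact (limma adjusted p = 1.97e-05).

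PDE12, a mitochondrial phosphodiesterase that trims poly(A) tails and degrades 2-5A, averaged 176 ± 35.4 normalized counts in contact, 145 ± 10.4 in no contact and 115 ± 9.77 in controls (SD, n = 5 per group; log2 fold change 0.59 in contact against control, limma adjusted p = 0.00193). The mitochondrial poly(A) polymerase MTPAP rose by 0.25 in contact against control (limma adjusted p = 0.0266), a call lost without contact 28 or 97 or control 24, 84 or BEEC.104 (limma adjusted p = 0.0514 to 0.0748). Against no contact its log2 fold change was 0.24 (limma adjusted p = 0.0583), and it passed without no contact 90 or 109 (limma adjusted p = 0.0285 and 0.0407). FASTK, which in human cells is needed for ND6 mRNA, fell by 0.26 in contact against control and by 0.31 in contact against no contact (limma adjusted p = 0.0458 and 0.0318). Its first call was lost without any 1 contact library, no contact 30 or 110, or control 24, 83 or 84 (limma adjusted p = 0.0507 to 0.138), and its second without contact 97 or 107 or no contact 30, 89 or 90 (limma adjusted p = 0.0528 to 0.106). The first was also lost with no filter, CPM, TMM factors with or without the mitochondrial genes, edgeR, and edgeR blocked on the run (adjusted p = 0.0501 to 0.0732), and the second in a fit of only the 2 groups compared (limma adjusted p = 0.0584). SLIRP, the partner of the mRNA-stabilizing protein LRPPRC, had a log2 fold change of -0.31 in contact against no contact (limma adjusted p = 0.0455), lost without any 1 library other than no contact 89 or 109 (limma adjusted p = 0.0522 to 0.0926). That call was also lost with the run as a block by limma or edgeR, with no filter, CPM or scaling to the nuclear total, and in a fit of only the 2 groups (adjusted p = 0.0541 to 0.102). LRPPRC itself had log2 fold changes of 0.15 in contact against control and 0.22 in contact against no contact (limma adjusted p = 0.159 and 0.0572), the second called without no contact 109 (limma adjusted p = 0.0191).

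**Figure D5:**
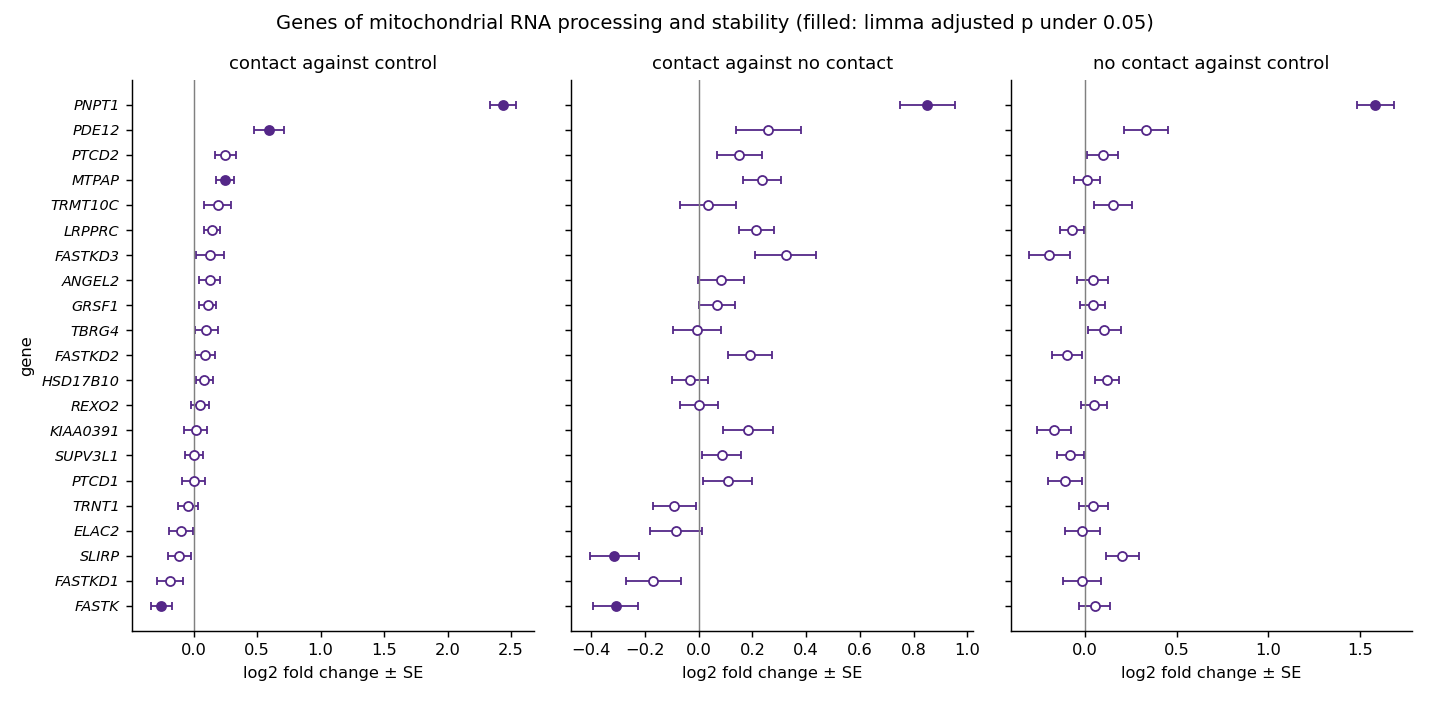
Log2 fold change ± SE (horizontal axis, a different range in each panel) of the 21 tested genes of mitochondrial RNA processing and stability in contact against control, contact against no contact and no contact against control. Filled circles passed a limma adjusted p of 0.05. PNPT1 stands at 2.43, 0.85 and 1.58 in the 3 panels.

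Of 16 tested genes of mitochondrial transcription and genome copying, limma called 1 up and 0 down with contact against control, the same 1 up and 0 down against no contact, and 0 between no contact and control. The called gene was DNA2, a nuclease and helicase that also works in the nucleus, with log2 fold changes of 0.59 and 0.68 (limma adjusted p = 0.0325 and 0.0292). The first call was lost without contact 28, 87 or 97 or control 83, 84, BEEC.103 or BEEC.104 (limma adjusted p = 0.0547 to 0.0964), and the second without contact 28, 87 or 97 or no contact 30, 89 or 110 (limma adjusted p = 0.0578 to 0.0872). TFAM, which packages mitochondrial DNA and starts its transcription, averaged 315 ± 34.6 normalized counts in contact, 276 ± 39.9 in no contact and 258 ± 16.0 in controls (SD, n = 5 per group; log2 fold change 0.28 in contact against control, limma adjusted p = 0.0657, and 0.0304 without no contact 90). POLRMT, the mitochondrial RNA polymerase, averaged 517 ± 25.1 in contact, 554 ± 60.8 in no contact and 571 ± 56.5 in controls (log2 fold change -0.14 in contact against control, limma adjusted p = 0.29).

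The next lists held assembly factors and some subunits, and that for the other complexes also held NDUFA4, a nuclear member counted above. In them limma called 1 of 18 for complex I and 3 of 32 for the other complexes up with contact against control, and 0 down, beside 7.17% up and 5.78% down over all genes. NDUFAF4, an assembly factor of complex I, rose by 0.57 (limma adjusted p = 0.00628), a call lost without contact 97 and 108 together (limma adjusted p = 0.0726). SCO1, which delivers copper to complex IV, averaged 869 ± 62.5 normalized counts in contact, 693 ± 49.5 in no contact and 612 ± 24.2 in controls (SD, n = 5 per group). It rose by 0.50 in contact against control and by 0.32 in contact against no contact (limma adjusted p = 1.67e-05 and 0.00475). SDHAF2, which attaches the flavin of SDHA, and COA7, a complex IV assembly factor, rose by 0.31 and 0.56 in contact against control (limma adjusted p = 0.00409 and 0.0203). The COA7 call was lost without contact 28 or 97 or control 24 or BEEC.103 (limma adjusted p = 0.0514 to 0.0676).

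Among other mitochondrial genes of the nucleus, limma called 3 of 75 mitochondrial ribosomal protein genes up and 2 down with contact against control, with a median of 0.02, beside 7.17% up and 5.78% down over all genes. MRPL32, MRPL47 and MRPL44 rose by 0.47, 0.44 and 0.35, and MRPL51 and MRPS15 fell by 0.31 and 0.40 (limma adjusted p = 0.00184, 0.00321, 0.00789, 0.00313 and 0.0225). Between contact and no contact 1 of the 75 was called, MRPS15, which fell by 0.42 (limma adjusted p = 0.0304). The first MRPS15 call was lost without contact 107 or control 24, 83 or 84 (limma adjusted p = 0.0528 to 0.0768), and the second without contact 28, 97 or 107 or no contact 89, 90 or 110 (limma adjusted p = 0.0541 to 0.0753). Of 18 citric acid cycle genes IDH2, mitochondrial isocitrate dehydrogenase, was called, and it fell by 0.38 in contact against control (limma adjusted p = 0.0096). Citrate synthase, CS, averaged 1291 ± 74.8 normalized counts in contact, 1297 ± 53.3 in no contact and 1311 ± 96.2 in controls.

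FUNDC1, a receptor of mitophagy in the outer membrane, was the 1 gene called of 18 for proteases, oxidant defence and mitophagy. It averaged 418 ± 48.5 normalized counts in contact, 313 ± 20.6 in no contact and 275 ± 26.7 in controls (SD, n = 5 per group), and it rose by 0.60 in contact against control and by 0.41 in contact against no contact (limma adjusted p = 8.11e-05 and 0.00801). Of 33 genes of mitochondrial membranes, import and carriers, 4 were called higher in contact than control, beside 7.17% of all genes. These were the import receptor TOMM20, the fusion protein MFN2 and the chaperones HSPD1 and HSPA9, with log2 fold changes of 0.27, 0.26, 0.19 and 0.17 (limma adjusted p = 0.0252, 0.0397, 0.0183 and 0.0468). The HSPA9 call failed when any 1 of 11 libraries was dropped, all but contact 107 and 108 and no contact 89 and 90 (limma adjusted p = 0.0527 to 0.126). The TOMM20 call was lost without contact 28, 87 or 97 or control 83 or BEEC.104 (limma adjusted p = 0.0501 to 0.0864), and the MFN2 call without contact 28, 87, 97 or 108 or control 83, 84 or BEEC.104 (limma adjusted p = 0.0603 to 0.112). The fission protein DNM1L was called higher in contact than no contact, at 0.34 (limma adjusted p = 0.0424), and did not pass when any 1 of 11 libraries was dropped, all but contact 108, no contact 109 or 110, and control 83 (limma adjusted p = 0.0519 to 0.108), or with the run as a block (limma adjusted p = 0.0576). Without contact 97 and 108 together, every call of HSPD1, HSPA9, TOMM20, MFN2, DNM1L, MRPS15, MTPAP, DNA2, FASTK, SLIRP and MYC given here was lost (limma adjusted p = 0.0638 to 0.206).

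Of 12 tested regulators of mitochondrial biogenesis, limma called MYC alone, a growth-promoting transcription factor, at 0.24 in contact against control (limma adjusted p = 0.0409). That call was lost without any 1 contact library or control 24, 83 or 84 (limma adjusted p = 0.0524 to 0.134). For context, 8 of 8 genes of an interferon-stimulated panel were called higher in all 3 comparisons. Whether any of these genes bears on the mitochondrial transcripts was not tested.

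Markers of other cells were read in the same libraries. The embryo markers matched 17 of 20 names, and their sum was 3458 to 4001 normalized counts in contact, 3859 to 4545 in no contact and 4053 to 4467 in control. NANOG, LIN28A, PAG2, PAG11 and ZFP42 were at 0 in all libraries, and POU5F1 did not pass 3.36. The sum was led by GATA2, TFAP2A and TEAD4, with TFAP2A at 1432 to 1653 in contact, 1776 to 2403 in no contact and 1766 to 2107 in controls. The row named IFNT read 32.1 to 89.3 in contact, 27.3 to 70.3 in no contact and 18.8 to 71.4 in controls, with overlap. The embryo sum thus lay lower in every contact library than in every control library, and its part in the result was not tested. The summed stromal markers were 341240 to 407636 in contact, 315245 to 382622 in no contact and 360586 to 384733 in controls, and the summed epithelial markers 47538 to 65945 in contact, 50228 to 70644 in no contact and 50891 to 67825 in controls, with overlap throughout. Of 7 leukocyte markers LYZ and S100A8 were at 0 and PTPRC did not pass 0.969, and the sum, led by CD68 and CD14, was 158 to 545 in contact, 188 to 413 in no contact and 213 to 562 in controls. CD14 itself read 73.1 to 87.6 in contact, 88.8 to 119 in no contact and 102.6 to 130 in controls, so that contact lay below both, and its part in the result was not tested. Of the red cell markers HBB was at 0, and the sum was 4.02 to 10.1 in contact, 5.22 to 18.3 in no contact and 5.70 to 17.2 in controls. The endothelial markers, led by VWF, summed to 133 to 186 in contact, 134 to 189 in no contact and 135 to 217 in controls, with overlap.

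The authors' deposited table holds their own fold changes and FDR for the same comparisons. At an FDR under 0.05 the authors' deposited table has all 13 mitochondrial genes lower with contact, both against control and against no contact, and 0 differing between no contact and control. For CYTB the authors' deposited table gives log2 fold changes of 0.77 for control over contact, which is the opposite direction to that used above, and -0.72 for contact over no contact. For ND2 it gives 0.34 for control over contact with an FDR of 0.0248. Of the 78 nuclear genes the authors' deposited table has 0 past that FDR for contact against control, and 2 that fell with contact against no contact. No share of all genes past that FDR was made from the authors' columns. How far these counts of mitochondrial and nuclear genes depart from such a background was therefore not tested.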

How the data were processed

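RNA-seq of 15 cultures was analysed from 1 deposited table. Per the labels' protocols, polyadenylated RNA was sequenced, and per the submitters' processing notes HISAT2 2.1.0, featureCounts 1.6.2 and DESeq2 1.18.1 were used. The sources used here do not give the build, annotation or strand setting. The values the authors deposited are a signal, read counts divided by a size factor, and 100% were whole reads within 0.1 of a read once rescaled. The authors also deposited log2 fold changes, a test score, p-values and FDR.

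Limma 3.58.1 in R 4.3.3 was run on log2(value + 1) with a trend and robust empirical Bayes over all 15 libraries, which is the test planned for such values. Genes needed a value of 10 in 5 libraries. This left 12559, with Benjamini-Hochberg adjustment per comparison at 0.05. Each fold change is on that log2 scale, which understates changes of low genes. edgeR 4.0.16 and DESeq2 1.42.0 on recovered reads were alternatives, as were other scalings, filters and pseudocounts, a run block and left-out libraries. The code was tested on simulated data. Depth limits precision most for contact 97 and 108. Named genes were the 13 mitochondrial genes, nuclear genes called or with the 2 highest means of their complex, SDHA to SDHD, and up to 4 called genes of each context list. Others, among them TFAM, POLRMT, LRPPRC, CS, MTPAP, HSPA9 and MRPS15, were named after their values were seen. Members and lists were chosen with earlier results of these data known. Sequences and promoter motifs were not analysed here, and some genes the rule names are not reported here.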

Additional observations from a re-analysis of the deposited data

Results flagged for a closer look

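Each group of 5 libraries was checked for 1 library far from the other 4 by Dixon's test, for the named genes and the sums, in 243 groups. 15 were found, where chance gives about 1 in 20. Their causes were not tested.

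Among the mitochondrial genes, ND4L stood at 6313 normalized counts in contact 87, against 5451 to 5672 in the other contact libraries. The mitochondrial over nuclear ratio of complex III was 7.33 in contact 108 and 6.19 to 6.48 in the others. Among nuclear members, ATP5MF stood at 961 in no contact 90, with 681 to 738 in the others of that group, and at 576 in control BEEC.104, with 639.6 to 657.7 in the others. NDUFB8 was at 895.6 in no contact 90 and 757.3 to 797.4 in the others, and ATP5F1B was at 5469 in no contact 30 and 4586 to 4745 in the others. UQCRC1 was low at 1028 in contact 97, with 1205 to 1222 in the others, and SDHD was high there at 803, with 569.6 to 634 in the others.

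Among context genes, contact 97 was apart for FASTK, at 914 with 1056 to 1098 in the others, and for MRPL44, at 282 with 245 to 252 in the others. SDHAF2 was at 586 in no contact 109, and MRPL51 at 562 in no contact 89. DNM1L was at 318 in control 83, MRPL47 at 371 in control BEEC.103, and OAS1X at 37.6 in control BEEC.103.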

How the results depend on the processing

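The 12 mitochondrial calls against control and the 10 against no contact stayed within 1.5 times of their counts under every alternative run, and each of the 13 kept a negative fold change in both contact comparisons. Counts of nuclear calls, main value 0 higher and 0 lower in contact against control, were 3 higher with CPM, 4 higher and 2 lower with the run as a block by limma and by edgeR (chosen after seeing the data), 2 higher and 3 lower in the fit of only the 2 groups compared, and 1 higher without contact 97 and 108. Over all genes CPM called 1109 higher, and the block called 1069 higher and 963 lower by limma and 1132 and 935 by edgeR. The fit of only the 2 groups called 1174 higher and 1046 lower over all genes, and that without contact 97 and 108 called 624 higher. In contact against no contact 1 nuclear gene was lower in the main fit, 2 with DESeq2 and with edgeR and the run block, and 0 with no filter, CPM, only the 2 groups compared, edgeR, or without contact 97 and 108. Over all genes that comparison had 334 lower with DESeq2, 187 with no filter, 156 with CPM and 221 with edgeR. Over all genes, calls lower in contact than control were 420 without contact 97 and 108, against 726. Calls lower in no contact than control were 52 with the block, 33 with DESeq2 and 61 with edgeR and the block, against 14. Calls in contact against no contact were 306 higher without contact 97 and 108, against 469, and 344 lower with the block, 365 with edgeR and the block, 111 with only the 2 groups compared and 84 without contact 97 and 108, against 229. The cause was not tested.

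Leaving out 1 library at a time gave 10 to 13 mitochondrial genes lower than control and 9 to 12 lower than no contact, and 0 to 3 nuclear genes higher and 0 to 3 lower than control and 0 to 4 lower than no contact. Over all genes it gave 687 to 1102 higher and 473 to 980 lower in contact than control, 162 to 187 higher and 3 to 19 lower in no contact than control, and 325 to 561 higher and 115 to 349 lower in contact than no contact. No paired analysis was possible because no title number is shared between groups, and the runs of numbers entered as a block instead. Contact 97 and 108 limit depth. Reads scaled to the nuclear total, an alternative chosen after seeing the data, gave 12 mitochondrial genes lower in each contact comparison. Of all 12567 genes in that fit, 742 were lower than control and 240 lower than no contact.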
